A study of Mus musculus with 6 samples.

Results

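Gene expression in the liver and in the ovary of immature female mice was compared on 4 one-colour Agilent microarrays, 2 of liver and 2 of ovary, out of the 6 arrays of the series. The animals were CD-1 females aged 24 days that had received peanut oil (control) or fluorene-9-bisphenol (BHPF), a substitute for bisphenol A, by daily gavage at 50 mg per kg body weight for 3 days. The groups were thus control liver, BHPF liver, control ovary and BHPF ovary, each with 1 array of RNA pooled from 3 animals, and the labels name no allele, operation or agent beyond these. No array had a replicate of its own group. A comparison of the tissues therefore rested on 2 arrays a side that differed in treatment, and its p values measured the spread left after tissue and treatment, not the spread between animals. The 4 arrays shared a slide and a scan. Position on that slide was not part of the fit, so tissue and position on the slide cannot be told apart.

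The liver of a weaned mouse secretes most plasma proteins, makes bile acids and glucose, disposes of nitrogen as urea and breaks down drugs and steroids. It stops being a major site of blood formation soon after birth but keeps resident macrophages, the Kupffer cells. The ovary before puberty holds oocytes in growing follicles, granulosa cells that make inhibin, anti-Müllerian hormone and aromatase, and theca cells that supply androgen, and the zona pellucida proteins are products of the oocyte.

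The level of a probe was the log2 of its background-subtracted signal minus the 75th percentile of that array, so that 0 is a bright probe and each unit is a doubling. Levels describe 1 probe across arrays and do not rank genes against each other. A probe was kept when its signal was well above background on both arrays of either tissue, which held for 39649 of 55681 probes. They gave 16487 genes with a symbol and 18092 probes without one. A gene was called when the limma test gave an adjusted p (Benjamini-Hochberg over all 34579 features) under 0.05 and liver and ovary differed by at least 2-fold in the same direction both in control and in BHPF mice. Some probes were not well above background on an array. There the higher of the probe's own level and the lowest level well above background on that array was used. The fold was then treated as a lower bound and is given as at least that many. Where the probe's own level was the higher, it is a reading not told from background, and the bound is approximate. The lowest levels well above background were −5.62 (control) and −4.91 (BHPF) in liver and −6.33 and −5.74 in ovary. Pairs of levels below are given in that order, control first. The share of probes well above background was 63.9% and 61.4% on the liver arrays and 74.6% and 69.4% on the ovary arrays. Pearson's r over 31643 probes was 0.987 between the liver arrays, 0.995 between the ovary arrays and between 0.809 and 0.821 across tissues. In whole tissue, fewer cells of a type and less RNA per cell cannot be told apart.

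The tissue labels were checked against marker genes. All 15 hepatocyte markers were called higher in liver, with a median difference of 7.58 on the log2 scale, and 14 of 15 granulosa cell and oocyte markers were called higher in ovary, with a median of −6.93, although 2 of these 15 were well above background on both liver arrays and the others passed the filter through ovary. Across all genes tested, 19.0% were called higher in liver (3138 genes) and 19.7% higher in ovary (3242 genes), and every count of members below is to be read against these shares. Members dim in 1 tissue passed the filter through the other, so the counts describe the members and are no support for a difference of the group. A further 1960 probes without a symbol were called higher in liver and 2610 higher in ovary. The direction was shared by control and BHPF mice for 14985 of the 16487 genes, and 95.0% of the genes had tissue differences that moved by less than 1 log2 unit between the treatments.

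**Figure D1:**
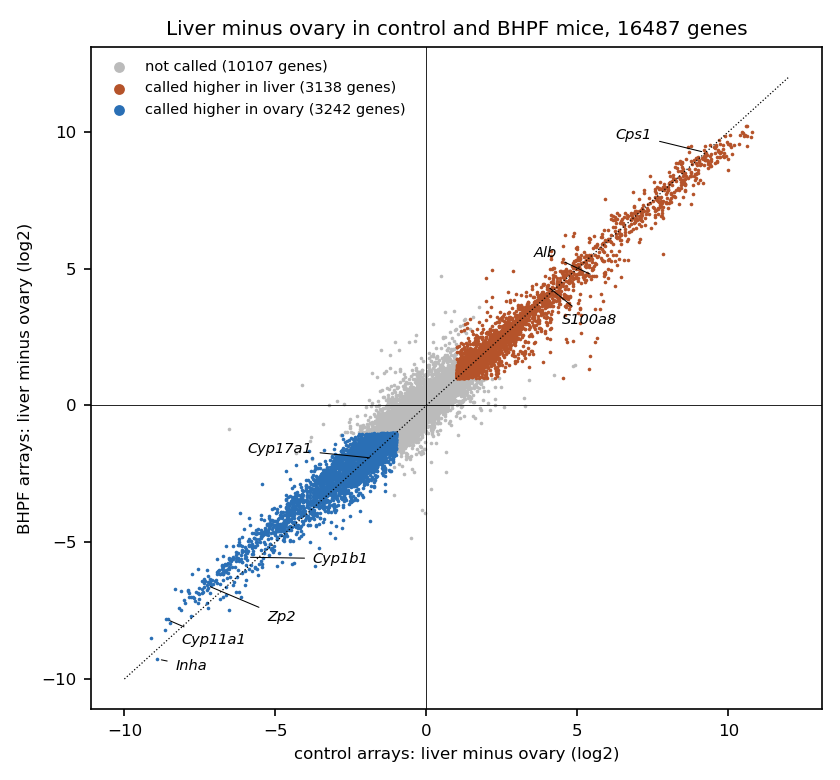
Liver minus ovary on the control arrays (x axis, log2) against liver minus ovary on the BHPF arrays (y axis, log2), 1 point for each of 16487 genes, coloured by call; the dotted line marks equal differences. The 3138 genes called higher in liver reach beyond 10 and the 3242 called higher in ovary end near −9.

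The balance between the directions depended on the scaling of the arrays. Of the called genes, 49.2% were higher in liver, but 61.6% with the 50th percentile as the reference and 34.3% with the 75th percentile taken over probes that cleared background on every array. The median difference of all kept probes moved accordingly from 0.05 to 0.37 and to −0.33. Housekeeping genes are not a fixed point here. Their median difference was 0.76 over 19 genes, with 3 called higher in liver, and it was −0.15 after quantile normalization. Differences of less than about 1 log2 unit are therefore relative to the scaling.

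Which tissue had the larger differences depended on the size asked for. The median absolute difference was 2.09 among genes called higher in liver and 2.25 among those called higher in ovary, and 1652 against 1907 genes differed by at least 2 on the log2 scale. At larger sizes liver led. Of the genes called higher in liver, 21.2% differed by at least 16-fold, against 14.3% of those called higher in ovary, and 163 genes were higher in liver by at least 8 on the log2 scale against 6 in ovary. The fold was treated as a lower bound for 502 of the genes called higher in liver and for 1336 of those called higher in ovary. Differences towards ovary were thus more often limited by background. Among genes well above background on all 4 arrays, the 10 with the largest difference towards liver ran from *Orm1* (orosomucoid, an acute-phase plasma protein) at 10.28 (SE 0.31) through *Azgp1*, *Apcs*, *Agxt*, *Bhmt2*, *Spp2*, *Ugt2b36*, *Pon1* and *Cps1* to *Sds* (serine dehydratase) at 9.21. The 10 with the largest difference towards ovary ran from *Serpine2*, a protease inhibitor of follicles, at −7.32 (SE 0.14) through *Hs6st2*, *Tnni3*, *Cnmd*, *Fbxw26*, *Oas1e*, *Gprasp2*, *Mfap5* and *Plekhd1* to *Fbxw15* at −6.27. The adjusted p of these 20 genes lay between 0.0030 and 0.0056.

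The promoters below are those of some genes called higher in liver or in ovary. Each is shown as the 150 bases before the gene's start in RefSeq (GRCm38.p6), read 5′ to 3′ on the strand of the gene. They were chosen after their values were seen, because the window holds one of the motifs searched on both strands. Capitals mark the motif. For *Alb* (albumin, chr5:90460720-90460869, plus strand), *Fga* (fibrinogen alpha chain, chr3:83026003-83026152, plus strand), *Gc* (vitamin D-binding protein, chr5:89457899-89458048, minus strand) and *Slco1b2* (hepatic uptake of organic anions, chr6:141629368-141629517, plus strand) it is the HNF1 motif, spelled GTTAATNAT or its reverse complement. For *Cyp8b1* (sterol 12-alpha-hydroxylase, chr9:121916306-121916455, minus strand) and *Cyp3a11* (drug oxidation, chr5:145879855-145880004, minus strand) it is the HNF4 motif CAAAGTCCA. For *Hsd3b1* (a 3-beta-hydroxysteroid dehydrogenase, chr3:98859795-98859944, minus strand) and *Lhx8* (an oocyte transcription factor, chr3:154330561-154330710, minus strand), both called higher in ovary, it is the GATA motif AGATAA or its reverse complement.
Alb: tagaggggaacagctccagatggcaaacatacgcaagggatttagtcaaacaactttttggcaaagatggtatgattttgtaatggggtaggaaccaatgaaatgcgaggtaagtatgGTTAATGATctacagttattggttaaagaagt
Fga: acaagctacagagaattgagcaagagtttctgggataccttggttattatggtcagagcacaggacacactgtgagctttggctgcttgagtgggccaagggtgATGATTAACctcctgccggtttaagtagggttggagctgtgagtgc
Gc: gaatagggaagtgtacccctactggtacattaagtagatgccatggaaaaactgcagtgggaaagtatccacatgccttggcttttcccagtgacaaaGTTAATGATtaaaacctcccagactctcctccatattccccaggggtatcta
Slco1b2: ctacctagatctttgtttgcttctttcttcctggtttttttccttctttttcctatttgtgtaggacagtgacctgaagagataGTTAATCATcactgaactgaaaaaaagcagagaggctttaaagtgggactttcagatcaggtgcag
Cyp8b1: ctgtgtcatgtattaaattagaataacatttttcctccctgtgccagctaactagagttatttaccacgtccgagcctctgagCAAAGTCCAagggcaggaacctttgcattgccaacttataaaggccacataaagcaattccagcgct
Cyp3a11: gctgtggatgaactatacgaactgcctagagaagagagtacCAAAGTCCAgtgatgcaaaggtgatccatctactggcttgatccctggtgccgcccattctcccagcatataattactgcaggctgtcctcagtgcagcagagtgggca
Hsd3b1: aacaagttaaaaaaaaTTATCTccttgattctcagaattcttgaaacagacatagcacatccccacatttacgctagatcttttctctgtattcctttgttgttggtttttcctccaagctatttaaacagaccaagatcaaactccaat
Lhx8: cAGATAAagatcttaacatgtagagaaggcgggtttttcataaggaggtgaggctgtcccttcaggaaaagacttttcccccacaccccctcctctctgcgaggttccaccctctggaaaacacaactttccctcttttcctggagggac
The HNF1 motif lay between 32 and 24 bases before the start of *Alb* and between 46 and 38 before that of *Fga*. Of all 32851 promoters in the table, 0.484% held this motif in the same window, 0.271% the HNF4 motif, 0.113% the C/EBP motif TTGCGCAA, 0.691% the SF-1 motif CAAGGTCA and 5.65% the GATA motif. The GATA letters are thus common. A comparison of motif shares between the called genes was void, since 78.3% of the genes called higher in liver and 77.1% of those called higher in ovary had a promoter in the table, under the 80% required. A match of letters is a description and not a binding site.

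All 38 plasma protein genes tested were called higher in liver, with a median difference of 6.48. Albumin (*Alb*) had levels of 6.07 and 5.77 in liver and of 0.52 and 1.04 in ovary, a difference of 5.14 (SE 0.27, adjusted p = 0.0045) or 35.2-fold. The liver and ovary arrays did not overlap, yet the *Alb* probe was well above background in ovary. The vitamin D-binding protein *Gc* was called higher in liver too. The smallest difference of the list was that of *Rbp4*, the retinol carrier, at 2.99. Apolipoproteins and lipoprotein handling gave 18 of 23 genes higher in liver and none higher in ovary. *Apob*, the structural protein of very low-density lipoprotein, was at least 654-fold higher in liver, and was well above background on 1 ovary array. *Apoe*, which many cell types make, differed by 2.22. The high-density lipoprotein receptor *Scarb1* did not pass, with levels of 1.77 and 1.33 in liver and of 1.12 and 1.11 in ovary.

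Of 25 coagulation genes, 21 were called higher in liver and 2 higher in ovary. All 25 were well above background on both liver arrays and 15 on both ovary arrays, so the others passed the filter through liver. The fold was a lower bound for 11 of them. *Fga* was dim on both ovary arrays, below the background criterion, and was at least 1338-fold higher in liver (adjusted p = 0.0030). Its partner *Fgb* had levels of 5.64 and 5.45 in liver and of −1.26 and −1.25 in ovary, a difference of 6.80. Prothrombin (*F2*) differed by 7.06. The 2 members that were higher in ovary act on the vessel side of clotting, but other such members did not follow. Von Willebrand factor (*Vwf*) was called higher in liver (1.51), and tissue factor (*F3*) was not called (−0.55). Tissue plasminogen activator (*Plat*) had levels of −3.81 and −3.02 in liver and of 1.71 and 1.65 in ovary, a difference of −5.09 (SE 0.28, adjusted p = 0.0047). Thrombomodulin (*Thbd*) differed by −2.20. Of 25 complement genes, 23 were called higher in liver and none higher in ovary, with *C3* at 4.36 and the terminal components *C8a* and *C9* at least 701-fold and 163-fold higher.

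Nearly all genes listed for intermediary metabolism were called higher in liver. All 19 genes of bile acid synthesis and transport and all 19 of gluconeogenesis and glycogen were called higher in liver, as were 33 of 34 of the urea cycle and amino acid breakdown. *Cyp7a1*, the rate-limiting enzyme of bile acid synthesis, had levels of 3.31 and 3.24 in liver and of −4.37 and −3.74 in ovary, a difference of 7.33 (SE 0.24, adjusted p = 0.0033). *Cyp8b1*, which sets the ratio of cholic acid to other bile acids, was at least 130-fold higher in liver and dim on both ovary arrays. *Pck1*, the cytosolic carboxykinase of gluconeogenesis, had levels of 4.72 and 4.69 in liver and of −2.86 and −2.92 in ovary, a difference of 7.60 (SE 0.13). The levels of each of these genes were far apart between the tissues and close between the treatments. Carbamoyl-phosphate synthetase (*Cps1*), the entry to the urea cycle, differed by 9.24 (SE 0.13), with 4.34 and 4.31 in liver and −4.91 and −4.93 in ovary. Argininosuccinate lyase (*Asl*), which also serves arginine supply in other tissues, differed by 3.15. *Sdsl* was the exception of that list, at 0.53 (adjusted p = 0.052).

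Genes listed for fat metabolism had smaller median differences than those lists. Of 23 genes of fatty acid oxidation and ketogenesis, 20 were called higher in liver and 1 higher in ovary, with a median of 2.64, and of 28 genes of lipid synthesis 23 were called higher in liver, with a median of 2.03. The hepatic fatty acid-binding protein *Fabp1* differed by 6.77, against 2.04 for *Cpt1a*, which admits fatty acids to mitochondria. *Pdk4*, which restrains pyruvate use, was the member higher in ovary, with levels of −1.06 and −0.91 in liver and of 0.90 and 0.53 in ovary. Fatty acid synthase (*Fasn*) differed by 3.11 and the desaturase *Scd1* by 5.02. *Elovl6* at 0.45 and *Srebf2* at 0.85 were not called.

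**Figure D2:**
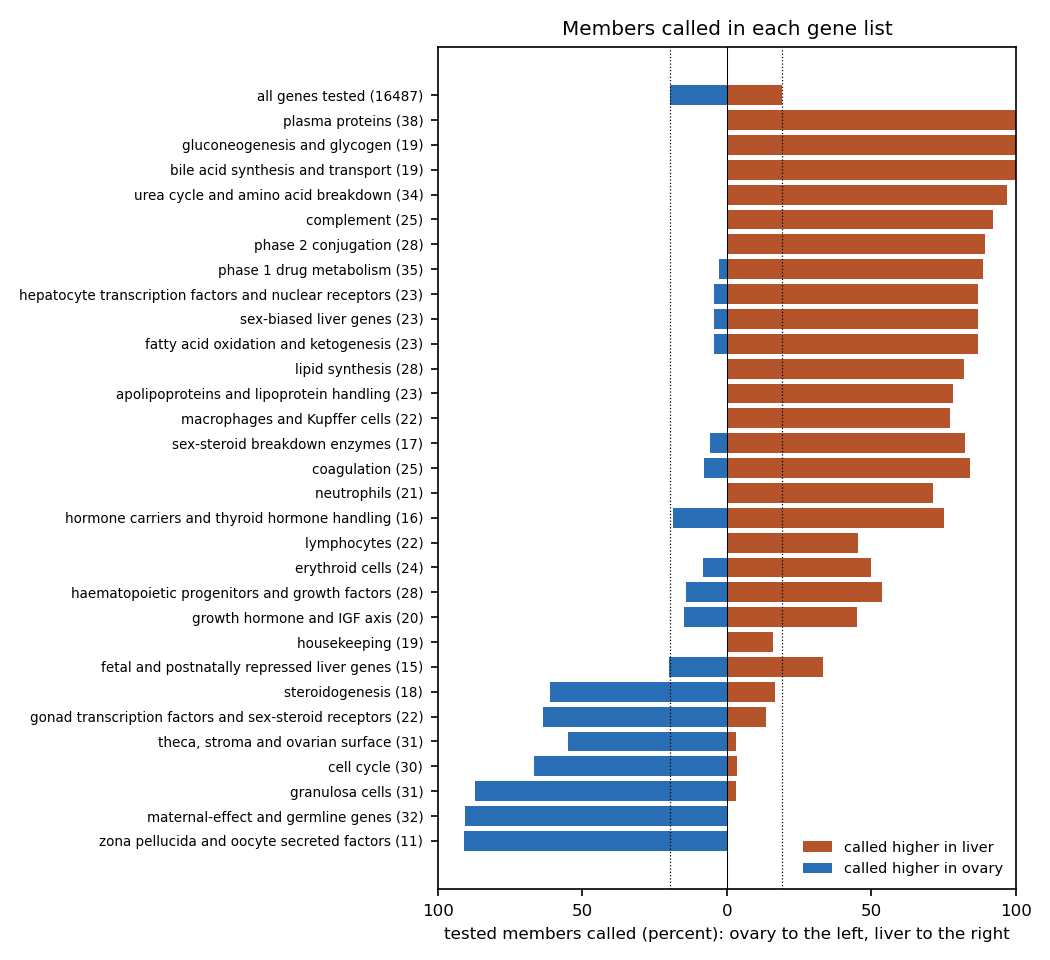
Percent of the tested members of each gene list called higher in liver (orange, to the right) or higher in ovary (blue, to the left), with the number tested in brackets; dotted lines mark 19.0% and 19.7%, the shares over all 16487 genes tested. Plasma proteins, gluconeogenesis and bile acids reach 100% towards liver, while oocyte, granulosa cell and cell cycle lists lie towards ovary.

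Drug and steroid metabolism was a liver property with a few ovarian exceptions. Of 35 phase 1 enzymes, 31 were called higher in liver and 1 higher in ovary, with a median of 7.26, and of 28 conjugating enzymes 25 were higher in liver and none higher in ovary, with a median of 4.14. *Cyp2e1* had levels of 5.24 and 5.27 in liver and of −2.48 and −1.98 in ovary, a difference of 7.48 (SE 0.19). *Cyp3a11* differed by 8.35, and *Cyp1a2* was at least 1201-fold higher in liver. The phase 1 member higher in ovary was *Cyp1b1*, which hydroxylates oestradiol. It had levels of −3.53 and −3.41 in liver and of 2.42 and 2.13 in ovary, a difference of −5.75 (SE 0.18, adjusted p = 0.0032) or 53.9-fold. Over the whole *Cyp* family, which was counted after values were seen, 66 of 83 genes were higher in liver and 5 higher in ovary. Of 15 *Ugt* genes 14 were higher in liver. For *Gstm3* and for the bile acid importer *Slc10a1* the probes of the gene disagreed in size, at 1.17 and 9.22 and at 0.96 and 8.71, and for factor X (*F10*) at 0.85 and 7.57. Probes of near-identical families such as *Mup*, *Serpina1*, *Cyp2c* and *Stfa* may read more than 1 gene.

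Of 17 genes listed for the breakdown of sex steroids, 14 were called higher in liver and 1 higher in ovary. The list is broader than its name. It holds the glucocorticoid enzymes *Hsd11b1* and *Hsd11b2*, and *Hsd11b2* was the member higher in ovary. It also holds *Hsd3b2* (8.34), *Hsd3b3* (8.82) and *Cyp2c70* (7.26), all called higher in liver. *Hsd3b1* and *Hsd3b6* were instead listed for steroid synthesis, so the counts of both lists depend on this division. *Hsd17b2*, which oxidizes oestradiol to oestrone, had levels of 4.14 and 4.25 in liver and of −0.74 and −0.55 in ovary, a difference of 4.84 (SE 0.13). *Akr1c6* differed by 9.03. Oestrogen sulphotransferase (*Sult1e1*) was at least 37.3-fold higher in liver and not well above background in ovary. The glucocorticoid enzymes divided: *Hsd11b1*, which regenerates active hormone, was higher in liver by 7.83, and *Hsd11b2*, which inactivates it, was at least 6.63-fold higher in ovary and not well above background in liver. The 5-alpha-reductase *Srd5a1* differed by 0.66 and was not called.

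Most genes listed for hormone carriers were also called higher in liver. Of 16 genes of carriers and thyroid hormone handling, 12 were called higher in liver and 3 higher in ovary. Corticosteroid-binding globulin (*Serpina6*) had levels of 4.30 and 4.53 in liver and of −2.91 and −2.56 in ovary, a difference of 7.15. Thyroxine-binding globulin (*Serpina7*) was at least 123-fold higher in liver. Sex hormone-binding globulin (*Shbg*), a hepatic plasma protein in many mammals, went the other way. Its levels were −5.75 and −3.47 in liver, where 1 array was well above background, and −0.18 and −0.60 in ovary, at least 17.8-fold higher in ovary (adjusted p = 0.029). Both liver arrays lay below both ovary arrays. Thyroid hormone genes split by isoform: the deiodinase *Dio1* differed by 5.69 and the receptor *Thrb* by 2.52 towards liver, whereas *Dio2* was at least 20.6-fold and *Thra* at least 3.55-fold higher in ovary.

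In the growth hormone and insulin-like growth factor axis, 9 of 20 genes were called higher in liver, 3 higher in ovary and 8 in neither. Receptors lay on both sides. The growth hormone receptor *Ghr* differed by 2.96, the prolactin receptor *Prlr* by 1.98, *Igf1* by 1.93 (3.48 and 3.47 in liver, 1.51 and 1.58 in ovary), and the acid-labile subunit *Igfals* was at least 403-fold higher in liver. Of the receptors, *Igf1r* alone was called higher in ovary, and had levels of −0.96 and −0.94 in liver and of 2.24 and 2.15 in ovary, a difference of −3.15 (SE 0.14, adjusted p = 0.0038). Among the binding proteins, *Igfbp1*, *Igfbp2*, *Igfbp3* and *Igfbp4* were higher in liver, and *Igfbp5* and *Igfbp6* higher in ovary (liver minus ovary −1.95 and −2.22).

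Of 23 hepatocyte transcription factors and nuclear receptors, 20 were called higher in liver. *Hnf4a*, a master regulator of hepatocytes, had levels of 4.11 and 4.22 in liver and of −5.95 and −5.69 in ovary, where 1 array was well above background, and was at least 1014-fold higher in liver. The xenobiotic receptors *Nr1i3* and *Nr1i2* differed by 7.56 and 6.81. *Foxa1* was at least 151-fold and *Foxa2* at least 120-fold higher in liver. *Nr5a2*, which also acts in granulosa cells, was the member called higher in ovary, with 0.71 and 0.55 in liver and 1.78 and 1.71 in ovary. Genes known for sex bias in adult liver were called higher in liver than in ovary for 20 of 23, those of either bias: the female-biased *Cyp2b9* was at least 331-fold higher in liver, and the male-biased *Cyp2d9* and *Hsd3b5* at least 896-fold and 265-fold. Of these 23, 15 were well above background on both ovary arrays, and the others passed the filter through liver. Genes that are silenced in liver after birth did not move together, with 5 of 15 higher in liver and 3 higher in ovary. *Afp* was at least 29.3-fold higher in liver, and *Dlk1*, *Meg3* and *Hmga2* were higher in ovary.

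**Figure D3:**
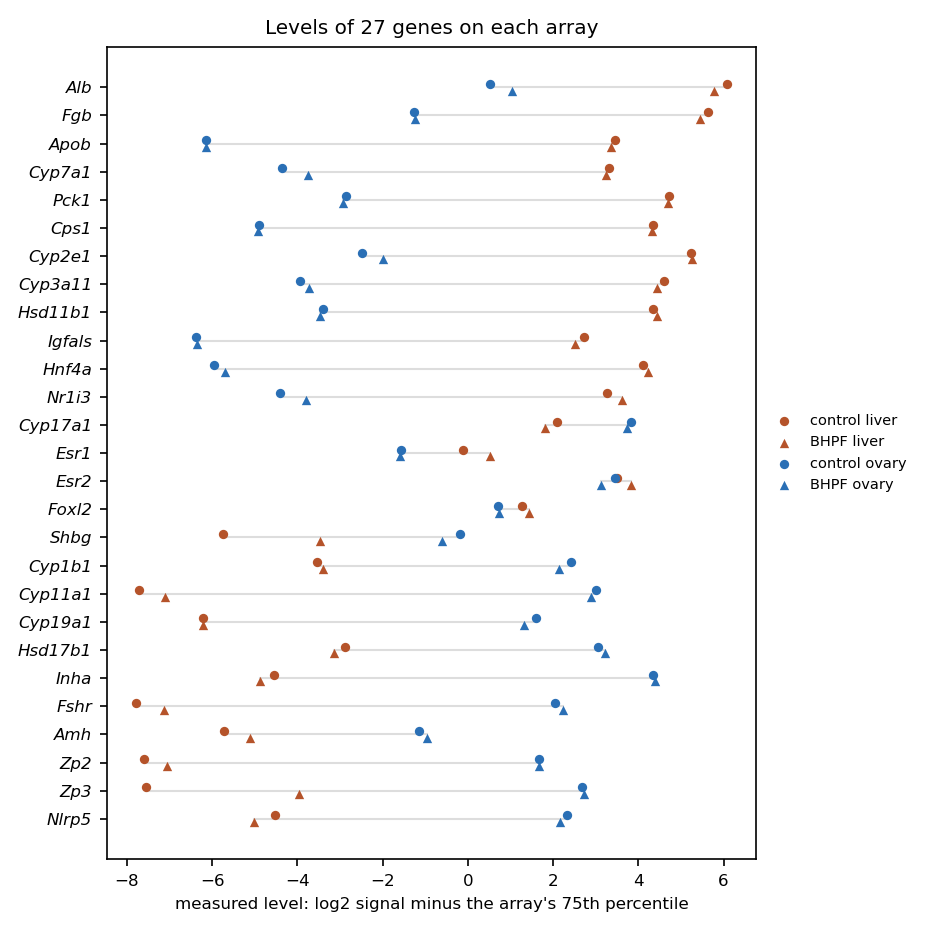
Measured level of 27 genes on each of the 4 arrays (x axis, log2 signal minus the array's 75th percentile); circles are control and triangles BHPF arrays, orange liver and blue ovary. Liver and ovary symbols lie apart for nearly all genes, while those of *Esr2* and *Foxl2* lie within 1 unit of each other.

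Most genes listed for steroid synthesis were called higher in ovary. Of 18 steroidogenic genes tested, 11 were called higher in ovary and 3 higher in liver. *Cyp11a1*, the side-chain cleavage enzyme that starts the pathway, had levels of 3.00 and 2.90 in ovary, was not well above background on either liver array and was at least 297-fold higher in ovary. Aromatase (*Cyp19a1*) was at least 106-fold higher in ovary. *Hsd17b1*, which makes oestradiol from oestrone, had levels of −2.89 and −3.15 in liver and of 3.06 and 3.22 in ovary, a difference of −6.16 (SE 0.18). The gonadotropin receptors *Fshr* and *Lhcgr* were at least 169-fold and 24.7-fold higher in ovary. The cholesterol carrier *Star* was at least 22.5-fold higher in ovary. *Cyp17a1*, the theca cell enzyme of androgen synthesis, differed less, since its probe was bright in liver, with 2.10 and 1.81 in liver and 3.84 and 3.74 in ovary, a difference of −1.84 (SE 0.14). *Hsd3b1* behaved alike, with 2.36 and 2.50 in liver and 3.78 and 3.79 in ovary. Those higher in liver were *Stard4*, *Akr1c18*, which inactivates progesterone, and *Hsd17b7*, which also serves cholesterol synthesis.

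Granulosa cell genes were called higher in ovary for 27 of 31, with 1 higher in liver. The inhibin alpha subunit *Inha* had levels of 4.35 and 4.40 in ovary, against −4.56 and −4.87 in liver, and was at least 545-fold higher in ovary. Anti-Müllerian hormone (*Amh*) was at least 18.6-fold higher, and its receptor *Amhr2* differed by −5.80. Some members did not follow. *Foxl2*, a granulosa cell transcription factor, was not called, with 1.27 and 1.43 in liver and 0.71 and 0.73 in ovary, and both of its probes were on the liver side (0.44 and 0.83). The oestrogen receptor *Esr2*, which granulosa cells use, had levels of 3.51 and 3.83 in liver and of 3.45 and 3.13 in ovary (adjusted p = 0.24). The higher ovary array lay just under the lower liver array. Whether the liver signal of these probes comes from *Foxl2* and *Esr2* transcripts was not tested. *Gatm*, an enzyme of creatine synthesis, was higher in liver by 1.17. The probes of *Kctd14* lay on both sides, from −7.26 to 0.96.

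Sex steroid receptors did not share a direction. *Esr1* was higher in liver, with −0.12 and 0.51 in liver and −1.57 and −1.60 in ovary (1.78, SE 0.23, adjusted p = 0.016). The progesterone receptor *Pgr* was at least 2.81-fold higher in ovary, but its 2 probes lay at −3.22 and 0.24. Of 22 gonad transcription factors and steroid receptors, 14 were higher in ovary and 3 higher in liver, the latter *Esr1*, the glucocorticoid receptor *Nr3c1* and *Lhx2*. *Wt1* differed by −4.70 and *Nr5a1* (SF-1) by −2.80, and *Nr0b1* was at least 71.0-fold higher in ovary. Of 31 theca, stroma and surface genes, 17 were higher in ovary and 1 higher in liver. Smooth muscle actin *Acta2* and myosin *Myh11* differed by −3.78 and −5.89. The matrix gene *Col3a1* had levels of 3.97 and 4.0 in liver and of 3.97 and 4.02 in ovary, and fibronectin (*Fn1*), which is also a plasma protein of hepatocytes, was higher in liver by 2.19.

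Oocyte genes were mostly bright in ovary and dim in liver. Of 11 zona pellucida and oocyte-secreted factors, 10 were called higher in ovary, with a median of −6.84, and of 32 maternal-effect and germline genes 29 were, with a median of −5.30. None was called higher in liver. Most of these members passed the background filter through the ovary arrays, and 3 of the 11 and 8 of the 32 were well above background on both liver arrays, so the counts describe the members and are no support for a difference of the group. With probes well above background on every array, 1 and 6 members were called. *Zp2*, a zona pellucida protein, had levels of 1.66 on both ovary arrays and was not well above background in liver, at least 121-fold higher in ovary. *Zp3* had levels of 2.69 and 2.73 in ovary and of −7.55 and −3.97 in liver, where the BHPF array alone was well above background, and was at least 181-fold higher. The oocyte growth factors *Gdf9* and *Bmp15* were at least 128-fold and 107-fold higher. Maternal proteins of the egg followed, with *Nlrp5* at least 125-fold and *Padi6* at least 172-fold higher. *Ooep* was the named member not called, at a bound of 1.97-fold. In the families counted after values were seen, 13 of 17 *Nlrp* genes and 13 of 21 *Fbxw* genes were higher in ovary. These folds were limited by the liver arrays: 24 of the 32 germline genes had a fold that is a lower bound.

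Cell division genes were mostly higher in ovary. Of 30 cell cycle genes, 20 were called higher in ovary and 1 higher in liver, with a median of −1.62. The spindle checkpoint kinase *Bub1b* differed by −3.61, the topoisomerase *Top2a* by −3.16 and cyclin D2 (*Ccnd2*), which follicle-stimulating hormone induces in granulosa cells, by −2.46. Cyclin D1 (*Ccnd1*) was higher in liver, with 2.60 on both liver arrays and −0.37 and −0.58 in ovary. The replication factor *Pcna* had levels of 2.75 and 2.85 in liver and of 2.90 and 2.82 in ovary and was not called. Most kinesin genes moved with them: in a count made after values were seen, 20 of 35 *Kif* genes were higher in ovary, 2 higher in liver. Homeobox (*Hox*) genes gave 15 of 31 and collagen genes 17 of 37 higher in ovary.

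Blood cell genes were read to see what haematopoiesis remained in liver at this age. Of 24 erythroid genes, 12 were called higher in liver and 2 higher in ovary, with a median of 1.21. Haemoglobin alpha (*Hba-a1*) had levels of 5.40 and 5.25 in liver and of 3.73 and 3.79 in ovary, a difference of 1.57. The erythroid haem synthase *Alas2* differed by 2.90 and the red cell anion exchanger *Slc4a1* by 3.83. The erythroid master regulator *Gata1* did not follow, since it was at least 6.07-fold higher in ovary, with 1 of the liver arrays well above background, and the blood group gene *Rhd* was higher in ovary (liver minus ovary −3.85). Members of this list are carried by circulating red cells too, and how much of the difference came from blood in the tissue was not tested.

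Of 28 progenitor and growth factor genes, 15 were called higher in liver and 4 higher in ovary. Those higher in liver were led by iron hormones of the hepatocyte: hepcidin (*Hamp*) was at least 1184-fold higher, and *Tfr2* and *Hjv*, which control it, differed by 7.27 and 6.25. Thrombopoietin (*Thpo*) was at least 6.29-fold higher in liver. Members listed for blood progenitors, but not confined to them, lay on both sides. In whole tissue they cannot show whether blood formation remained in liver. *Prtn3*, *Hlf*, *Ly6a*, *Spi1* and *Itga2b* were called higher in liver, by between 1.5 (*Itga2b*) and 5.5 (*Prtn3*). *Mpo*, *Elane*, *Ctsg* and *Ms4a3*, which like *Prtn3* mark myeloid precursors, were not well above background on both arrays of either tissue. Stem cell factor (*Kitl*) and its receptor *Kit*, which also act between granulosa cell and oocyte, differed by −2.94 and −2.51, *Cd34* by −2.34, and *Runx1* was at least 8.19-fold higher in ovary. *Myb* had levels of −4.67 and −5.98 in liver and of −4.22 and −4.83 in ovary and was not called, and erythropoietin (*Epo*) was not well above background on either liver array.

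Of 22 genes listed for macrophages and Kupffer cells, 17 were called higher in liver and none higher in ovary. The 17 include *Clec4g* (9.54), *Stab2* (4.27), *Lyve1* (1.34) and *Stab1* (1.19), which are not particular to macrophages. *Cd163* (1.32) and *Fcgr1* (−0.51) were not called. The Kupffer cell lectin *Clec4f* had levels of 3.51 and 3.73 in liver and of −4.08 and −4.06 in ovary, a difference of 7.69 (SE 0.14), and *Vsig4* differed by 8.36. *Adgre1* (F4/80), found on macrophages of many tissues, had 3.00 and 1.91 in liver and 1.12 and −0.08 in ovary, lower on the BHPF array of each tissue, and lysozyme (*Lyz2*) differed by 0.25 and was not called. Of 22 lymphocyte genes, 10 were higher in liver and none higher in ovary, with *Cd3e* at 2.15.

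Neutrophil genes differed between tissues, and their levels differed between the control and BHPF arrays. Of 21 tested, 15 were called higher in liver and none higher in ovary. Alarmin *S100a8* had levels of 3.26 and 0.54 in liver and of −0.72 and −3.85 in ovary, a difference of 4.18 (SE 0.18). *S100a9* had 3.96 and 1.69 in liver and 0.18 and −2.37 in ovary. In each tissue the BHPF array was the lower one for both genes, and the tissue difference was 3.98 in control and 4.38 in BHPF mice for *S100a8* and 3.79 and 4.06 for *S100a9*. The level was lower on the BHPF array for 21 of 21 genes in liver and 20 of 21 in ovary, with 1 array per group and no test of treatment. The share over all genes was not counted, so these counts cannot be set against it. Other lists varied: liver first, the counts were 16 and 14 of 30 cell cycle genes and 20 and 13 of 28 progenitor and growth factor genes. They were 4 and 10 of 28 conjugating enzymes and 6 and 16 of 22 lymphocyte genes. Over the neutrophil list, the median tissue difference was 4.03 in control and 2.43 in BHPF mice. The fold was a lower bound for 5 of the 21 genes, and 17 of the 21 were well above background on both ovary arrays. How far these bounds set the change of the median was not tested. Lactoferrin (*Ltf*) fell outside the call, with 0.47 and −3.71 in liver and −0.50 and −4.48 in ovary. The count of 15 depended on single arrays: it was 18 without the BHPF liver array, 8 without the control liver array, 4 without the control ovary array, 2 without the BHPF ovary array and 8 with all arrays but no treatment term. None of these fits held a treatment term, since 3 arrays do not allow it beside a test.

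**Figure D4:**
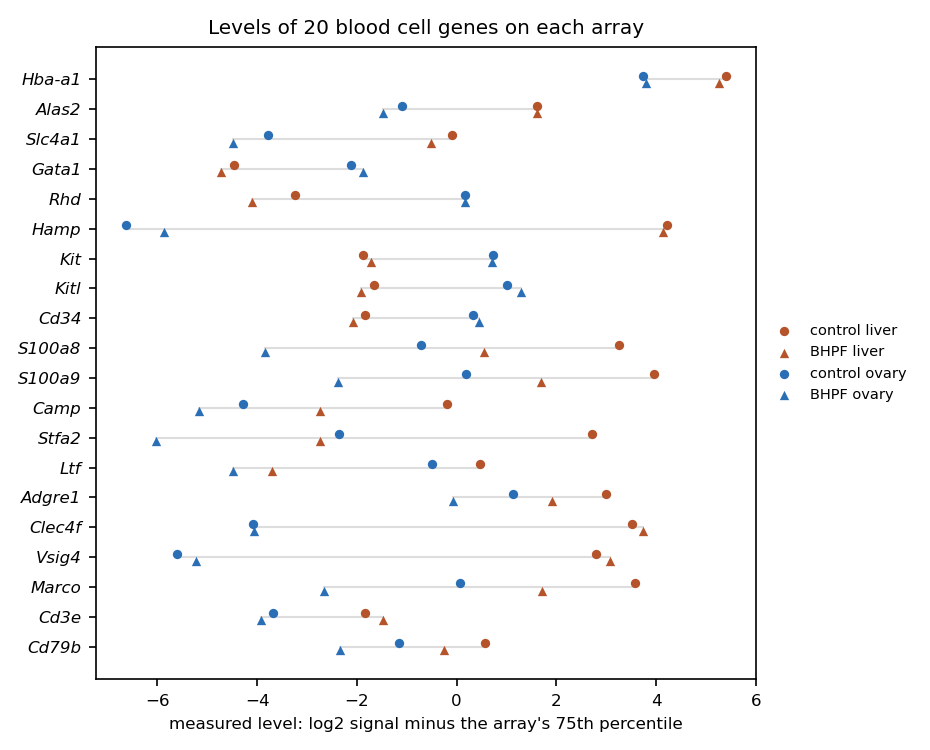
Measured level of 20 blood cell genes on each of the 4 arrays (x axis, log2 signal minus the array's 75th percentile), with symbols as for the other genes: circles control, triangles BHPF, orange liver, blue ovary. The neutrophil genes *S100a8*, *S100a9*, *Camp*, *Stfa2* and *Ltf* lie lower on both BHPF arrays, whereas *Clec4f* and *Vsig4* differ by tissue with levels close between treatments.

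Markers of the other tissue and of neighbouring tissues were measured alongside. Hepatocyte markers were not all at background in ovary: 13 of 15 were well above background on both ovary arrays and 1, *Tdo2*, on neither. Their summed linear signal was 7.95 and 9.22 in ovary against 459 and 450 in liver, or 1.73% and 2.05% of liver. The smallest difference among them was that of *Apoa1*, with 1.30 and 1.39 in ovary and 5.12 and 5.16 in liver, while *Hnf4a* was well above background on 1 ovary array. Granulosa cell and oocyte markers were well above background on both liver arrays for 2 of 15 genes (*Foxl2* and *Nr5a1*) and on neither for 9. What part carry-over of RNA or probe cross-reaction has in these ovary and liver levels was not tested. Of the pancreas markers 3 of 9 were higher in ovary and 3 higher in liver, with *Cpa1* at least 69.4-fold higher in ovary. Of 7 skeletal muscle markers 3 were higher in ovary, among them *Acta1* (−4.45). Of 7 adrenal cortex markers 4 were tested, with *Akr1b7* (2.10) and *Mrap* (1.94) higher in liver, *Nr5a1*, which the ovary uses too, higher in ovary and *Cyp21a1* (1.70) not called, while *Cyp11b1*, *Cyp11b2* and *Mc2r* were not well above background on both arrays of either tissue. Of 11 adipocyte markers 5 were higher in liver and 1 higher in ovary, of 10 bile duct markers 4 and 2, and of 10 oviduct and uterus markers 2 and 3, among the last *Ovgp1*, the oviduct glycoprotein (−1.70). What part neighbouring tissue has in the ovary values was not tested.

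The genes called were spread over the chromosomes with 1 exception, which was looked for after values were seen. Of 606 X-linked genes tested, 204 (33.7%) were called higher in ovary and 70 (11.6%) higher in liver. Of 15875 autosomal genes, 19.1% were higher in ovary and 19.3% higher in liver, and over single autosomes the shares ran from 14.7% to 22.9% towards ovary and from 16.5% to 24.6% towards liver. X-linked genes named above lay on both sides: *Bmp15*, *Nr0b1*, *Gprasp2* and *Hs6st2* were higher in ovary, and *Otc*, *F9*, *Serpina7* and *Vsig4* higher in liver. The share of X-linked genes towards ovary exceeded that of autosomal genes under each of the 18 alternatives, for example 26.9% against 15.0% with the 50th percentile as reference and 42.4% against 25.9% with the 75th percentile of the probes well above background on all 4 arrays. Genes of a chromosome are not independent, and no test was made.

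**Figure D5:**
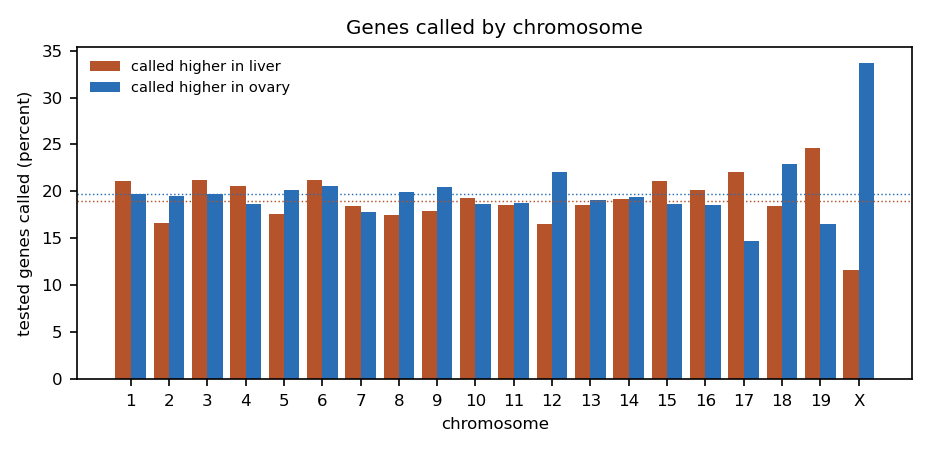
Percent of the tested genes of each chromosome (x axis) called higher in liver (orange) or higher in ovary (blue); dotted lines mark 19.0% and 19.7%, the shares over all genes tested. The X chromosome stands out with 33.7% higher in ovary and 11.6% higher in liver.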

How the data were processed

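RNA from control and BHPF liver and ovary, pooled from 3 animals, was labelled with Cy3 and hybridised to Agilent arrays. The authors deposited scanner files of intensity per spot, background-subtracted by Feature Extraction, whose version is 11.5.1.1 in the file headers and 9.1 in the submitters' processing notes. They also deposited a table of log2 values, scaled per array, whose liver and ovary columns differ from log2 intensity by a constant within 0.001; it served as an alternative. From the intensity, log2 minus the array's 75th percentile was taken, control spots and 222 probes with a missing value were left out, and probes were averaged per gene, named through RefSeq symbols (GRCm38.p6; 48.1% of probes had one). No array coordinates were used.

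Tissue was tested with limma 3.58.1 (R 4.3.3), treatment as covariate, on 4 arrays with 1 residual degree of freedom, Benjamini-Hochberg adjusted. The number of arrays limits the precision. Arrays of uterus entered 1 alternative only.

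Genes named were list anchors, the 10 largest differences each way among genes well above background on all 4 arrays, and up to 3 members called against each list's direction. Promoter examples, families, chromosomes, members said not to be called, probe disagreements and *Rbp4*, *Vwf*, *Igfbp3*, *Igfbp4*, *Cyp2b9*, *Cyp2c70*, *Hsd3b2*, *Hsd3b3*, *Hsd3b6*, *Acta2*, *Myh11*, *Bub1b*, *Slc4a1*, *Tfr2*, *Hjv*, *Hlf*, *Ly6a*, *Spi1*, *Itga2b*, *Prtn3*, *Mpo*, *Elane*, *Ctsg*, *Ms4a3*, *Clec4g*, *Lyve1*, *Stab1*, the adrenal markers, *Stfa2*, *Acta1* and *Ovgp1* were chosen after values were seen. The members and lists were chosen with earlier results of these data known. Protein sequences were not used here, and some genes are not reported here.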

Additional observations from a re-analysis of the deposited data

Results flagged for a closer look

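For 10 genes liver and ovary differed by at least 2-fold in opposite directions under control and under BHPF. The difference between the treatments was not tested, as each group had 1 array. Liver minus ovary was −1.19 in control and 1.84 in BHPF mice for *4930555G01Rik*, −1.05 and 1.21 for *BB014433*, and −1.39 and 1.18 for *Dhx9*, an RNA helicase. It was −1.64 and 1.05 for *Gm2897* and −1.22 and 1.35 for *Gm3002*. It was −1.81 and 1.17 for *Lynx1*, a modulator of nicotinic receptors, −1.04 and 2.32 for *Mageb16-ps1*, −1.49 and 2.02 for *Plcl1*, and −1.35 and 1.25 for *Ren1*, renin.

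In each of these 9 the BHPF liver array stood above the control liver array, for *Plcl1* at −1.71 against −4.71 and for *Lynx1* at −1.01 against −3.89, while the ovary arrays were close (*Plcl1* −3.22 and −3.73). *Slc6a4*, the serotonin transporter, went the other way, with 1.04 in control and −1.08 in BHPF mice. *Dhx9* and *Mageb16-ps1* were well above background on 1 liver array. Averaged over the treatments, the 2 probes of *Lynx1* lay on opposite sides, at −2.10 and 1.46, as did the 2 of *Gm3002*, at −0.99 and 1.12. For *4930555G01Rik* and *Gm3002* a probe was not well above background on every liver array.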

How the results depend on the processing

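Liver and ovary were compared within treatment through the treatment term, and without it 3118 genes were called higher in liver and 3244 higher in ovary. No paired analysis was possible by replicate number, because the labels give none. Under 18 alternatives none of the 205 called genes among the 232 named ones was reversed where it was measured. The other called genes were not checked singly for a change of direction. Medians near 0 did change sign: that of the fetal list from −0.66 to 0.03 with no filter on dim probes, and those of the oviduct, pancreas and muscle markers in at least 1 setting each. Named genes kept direction and side of the threshold in 3960 of 4073 comparisons, and list counts stayed within 1.5 times in 512 of 540. The share of called genes higher in liver was 61.6% with the 50th percentile and 34.3% with the 75th percentile of probes that cleared background on every array. The cause of the other changes was not tested. The housekeeping count was 6 and 1 under these scalings, 0 after quantile normalization (median −0.15), 0 at 4-fold and 5 in control arrays alone.

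At 4-fold, 1497 genes were called higher in liver and 1648 higher in ovary, with counts of 9 for cell cycle, 3 for lymphocytes, 9 for macrophages, 7 for progenitors, 6 for erythroid cells, 11 for theca and stroma, 13 for lipid synthesis and 13 for fatty acid oxidation. With the deposited table, which covers 14881 of the genes, counts were 10 for maternal-effect genes, 7 for steroidogenesis and 3 for zona pellucida genes. With only probes well above background on all 4 arrays (14040 genes), 2149 genes were called higher in ovary, with counts of 9 for gonad transcription factors, 12 for sex-biased genes, 16 for phase 2, 6 for steroidogenesis, 1 for zona pellucida, 6 for maternal-effect and 11 for coagulation genes; this filter drops genes dim in one tissue by construction. Without the treatment term the neutrophil count was 8. Leaving out 1 array gave 2694 to 3395 genes higher in liver, 2751 to 3709 higher in ovary, 2 to 18 neutrophil genes and, without the control ovary array, 1 housekeeping gene. Signal over background on the liver arrays limits the size of differences towards ovary.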
